A study of Homo sapiens with 3 samples.

Results

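RNA recovered with Flag-tagged FAK was compared with the RNA from which it was drawn, using the Flag-FAK and Input libraries, which are 2 of the 3 libraries sequenced and were chosen by their labels. All 334 transcripts for which values were given entered the comparison, each taken once, and transcripts that shared an assembly number were also summed into 293 loci. The cells were MDA-MB-231, an established line of human triple negative breast cancer labelled p53-mutant, in which Flag-tagged FAK (focal adhesion kinase) was produced from transfected plasmids. Lysates were incubated with anti-FLAG antibody (Flag-FAK) or normal mouse IgG (IgG) on Protein A/G Dynabeads, and Input was 10% of the starting RNA. Cells of all 3 groups expressed Flag-FAK, and cells without the tagged protein were not analysed here. With 1 library per condition there was no replicate check, and every difference below describes these libraries.

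RNA immunoprecipitation recovers RNA that stays with a protein through lysis and washing, together with abundant RNA that adheres to beads or antibody. Input shows what was present before this selection, and IgG what is retained without the Flag antibody. FAK is a cytoplasmic tyrosine kinase of focal adhesions. The transcripts measured here lie over several classes of non-coding RNA: ribosomal RNA, small nuclear RNAs of the splicing machinery, 7SK (which holds the elongation factor P-TEFb inactive), small nucleolar RNAs that guide processing of ribosomal RNA and their host genes, and long non-coding RNAs (lncRNAs).

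Ribosomal DNA transcripts took 91.3% of the 48763 reads of Flag-FAK, 97.5% of the 2056854 of Input and 92.0% of the 109658 of IgG (exact 95% intervals 91.0 to 91.5, 97.5 to 97.6 and 91.8 to 92.2). Their strand differed as well as their share. Of these reads, 99.8% in Flag-FAK and 99.7% in IgG were assigned to a plus-strand transcript, to which 0 of 2006230 were assigned in Input. The part of this difference in the other values was not tested. Outside ribosomal DNA, Flag-FAK had 4264 reads, Input 50624 and IgG 8777, and 58, 258 and 129 of the 291 remaining loci had at least 1 read. All intervals cover counting error only, since sequenced PCR products are not independent molecules.

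Ratios are of FPKM (fragments per kilobase of transcript, scaled to the size of the library), with Input divided by 11.1 so that both libraries had equal totals outside ribosomal DNA. At this scale 72 of the 291 loci reached 0.5 FPKM in Flag-FAK or in rescaled Input. Of these, 23 (31.9%) were above 2-fold, 32 (44.4%) below 0.5-fold and 17 between, after 0.1 FPKM had been added on both sides. As deposited, without rescaling, 11 of 265 loci (4.15%) were above 2-fold and 247 (93.2%) below 0.5-fold. Where 3 counts stand without library names they are for Input, Flag-FAK and IgG in that order, and a pair of ratios is for Flag-FAK and then IgG. The split of loci above and below followed the choice of total. It was 23 to 26 when the locus of an 18S ribosomal RNA pseudogene was also left out of the totals, 22 to 48 when 7SK was left out, 24 to 19 over all transcripts, and 19 to 92 when ratios were centred on their median.

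**Figure D1:**
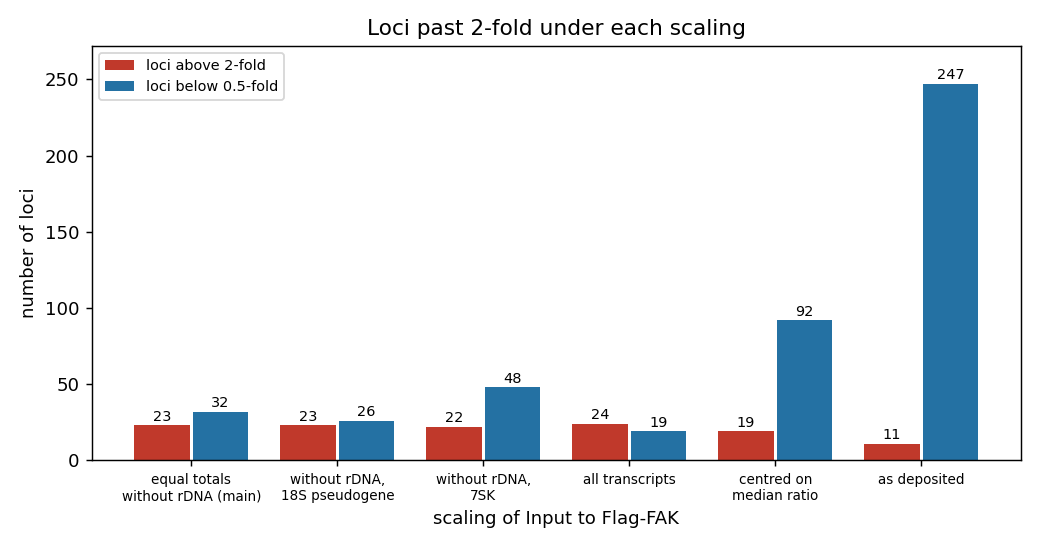
Number of loci above 2-fold (red) and below 0.5-fold (blue) in Flag-FAK relative to Input, under 6 ways of setting Input to the scale of Flag-FAK. The red bars lie between 11 and 24, whereas the blue bars range from 19 to 247.

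The gains and losses rested on unequal evidence. Of the 23 loci above 2-fold, 19 had a counting interval wholly above 1, and their reads in Flag-FAK ran from 2 to 345 with a median of 7. Of the 32 below, 26 had no read in Flag-FAK and 14 had an interval wholly below 1. Over all loci with reads in either library, 21 of 265 (7.92%) had an interval above 1 and 21 (7.92%) below it. Among the 51 loci with reads in both libraries, 28 were higher and 23 lower in Flag-FAK, and the median ratio was 1.18. A locus entered this set only with a Flag-FAK read, which 207 loci with Input reads lacked. At low counts this selection favours higher ratios, so the split and median do not describe all loci. Per transcript, the interval was above 1 for 25 of 297 (8.42%) and below 1 for 23 (7.74%). By fold, 30 of 78 (38.5%) were above 2-fold and 33 (42.3%) below 0.5-fold, against 15 (5.05%) and 276 (92.9%) of 297 as deposited.

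**Figure D2:**
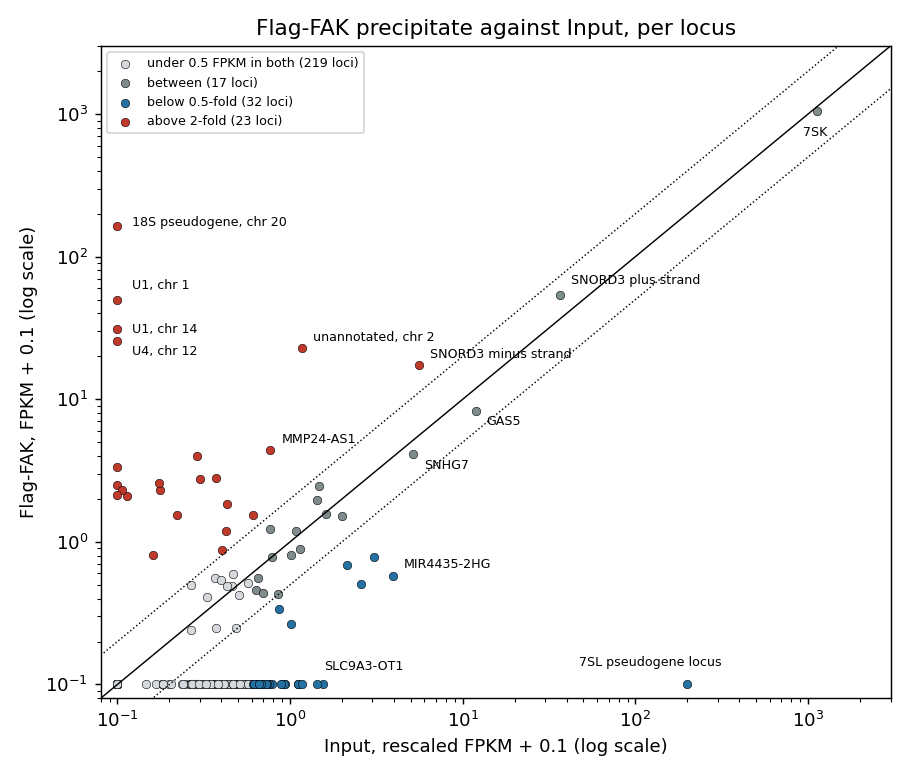
FPKM + 0.1 of each of the 291 loci outside ribosomal DNA in rescaled Input (x axis) and Flag-FAK (y axis), both on log scales, coloured by call. The solid line marks equality and the dotted lines 2-fold and 0.5-fold; 7SK lies near the line, U1, U4 and the 18S pseudogene at the left edge with 0 Input reads, and the 7SL pseudogene locus at the lower edge.

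The 7SK locus (RN7SK; chr6:52941639-52995944, plus strand, ending 7 bases inside the gene's end in GRCh38) spans 54306 bases and also covers GSTA4 and GSTA9P. It had 36842 reads in Input, against 2913 in Flag-FAK and 5108 in IgG. It made up 68.3% of reads outside ribosomal DNA in Flag-FAK, 72.8% in Input and 58.2% in IgG. The ratio to Input was 0.932 (95% counting interval 0.898 to 0.968) for Flag-FAK and 0.812 (0.788 to 0.836) for IgG. Since 7SK makes up most of the totals that were set equal, these ratios lie near 1 by construction. In Flag-FAK its log2 ratio, -0.10 at this scaling, was -0.38 with 7SK left out of the totals, -0.84 over loci read in both libraries without 7SK, -0.88 centred on the median and -3.57 as deposited. It was 0.24 with totals over all transcripts and 0.07 without the 18S pseudogene locus, so its sign followed the scaling.

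Loci of the small nuclear RNAs U1 and U4 had reads in Flag-FAK and none in Input. The U1 locus on chromosome 1 (chr1:16740523-16896141, plus strand, beginning 7 bases inside RNU1-4) had 0 reads in Input, against 126 in Flag-FAK and 267 in IgG. A U1 locus on chromosome 14 (chr14:34546721-34556375, plus strand), which ran from the pseudogene RNU1-27P to RNU1-28P, had 0, 78 and 143. U1 is the small nuclear RNA that recognises the 5′ splice site. Against a floor of 3 Input reads, these loci were at least 483-fold and at least 299-fold higher in Flag-FAK, and at least 513-fold and at least 274.9-fold higher in IgG. The chromosome 1 locus also spans CROCCP4, MST1L, LINC03126 and other genes, and the chromosome 14 locus LOC105370449. Whether their reads came from U1 was not tested. Both loci thus stood above the limit of Input with IgG as well as with the Flag antibody.

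The U4 locus differed from the U1 loci in that only the Flag-FAK library had reads there. It ran from RNU4-2 to RNU4-1, the genes of U4, which pairs with U6 before the spliceosome is activated, and also covered part of SIRT4 (chr12:120291771-120293231, minus strand). It had 0 reads in Input, against 59 in Flag-FAK and 0 in IgG. Against the same floor it was at least 226-fold higher in Flag-FAK than in Input (lower end of the interval 178). For IgG no ratio can be given, as both libraries were at 0. U1 and U4 copies are nearly identical within each family, so the locus to which a read was assigned is uncertain, and each of these 3 assembled loci spans more than a single annotated copy or runs beyond it.

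Of the 10 loci matched by gene name to small nuclear RNA genes or pseudogenes, 5 passed the minimum. Of these, 3 were above 2-fold (both U1 loci and U4), 1 was below and 7SK was between, against 31.9% above and 44.4% below over all 72 loci that passed. The one below was a locus spanning SH3D19 and the U6 pseudogene RNU6-1282P, with 58 reads in Input, against 0 in Flag-FAK and 0 in IgG. It began 34 bases before the RefSeq start of SH3D19 on the same strand, so its reads may not be small nuclear RNA. A further locus on chromosome 17 (chr17:43239592-43251959) lay over 4 RefSeq small nuclear RNA genes with provisional names (LOC124904135 to LOC124904138). Those names kept it out of the 10 loci, although it passed the minimum and was below 0.5-fold in Flag-FAK. It had 131 reads in Input, against 2 in Flag-FAK and 17 in IgG, giving a ratio of 0.162 (0.0210 to 0.647) against 0.767 (0.433 to 1.28) for IgG. Loci over small nuclear RNA genes thus did not move together, with the U1 and U4 loci above Input and the chromosome 17 locus below it.

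Sequence related to ribosomal RNA also appeared among the gains. A locus of 355 bases on chromosome 20 (chr20:29299450-29299804, minus strand) lay within LOC110467538, a pseudogene whose RefSeq synonym is RNA18SP, for 18S ribosomal RNA. It had 0 reads in Input, against 345 in Flag-FAK and 1086 in IgG. The locus was at least 1322-fold above Input in Flag-FAK and at least 2088-fold in IgG (lower ends of the intervals 1069 and 1695). It had no reads in the library in which the plus-strand ribosomal DNA transcript also had none, and reads in both libraries in which that transcript held nearly all ribosomal reads. Reads of ribosomal RNA and of this pseudogene may not be separable, and the part of ribosomal RNA in this value was not tested.

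A locus on chromosome 2 without a RefSeq gene (chr2:32916229-32916604, minus strand) was the highest of those with at least 5 reads in both libraries. It had 31 reads in Input, against 64 in Flag-FAK and 88 in IgG, and the ratio was 21.01 (13.5 to 33.4) for Flag-FAK and 17.4 (11.4 to 27.1) for IgG. Its 6 assembled transcripts overlap almost fully and shared these reads differently in each library. In Flag-FAK all reads fell on 2 of them (36 and 28), whereas in IgG 78 of 88 fell on 2 others that had no read in Flag-FAK or Input. Only the sum over the locus is comparable here.

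**Figure D3:**
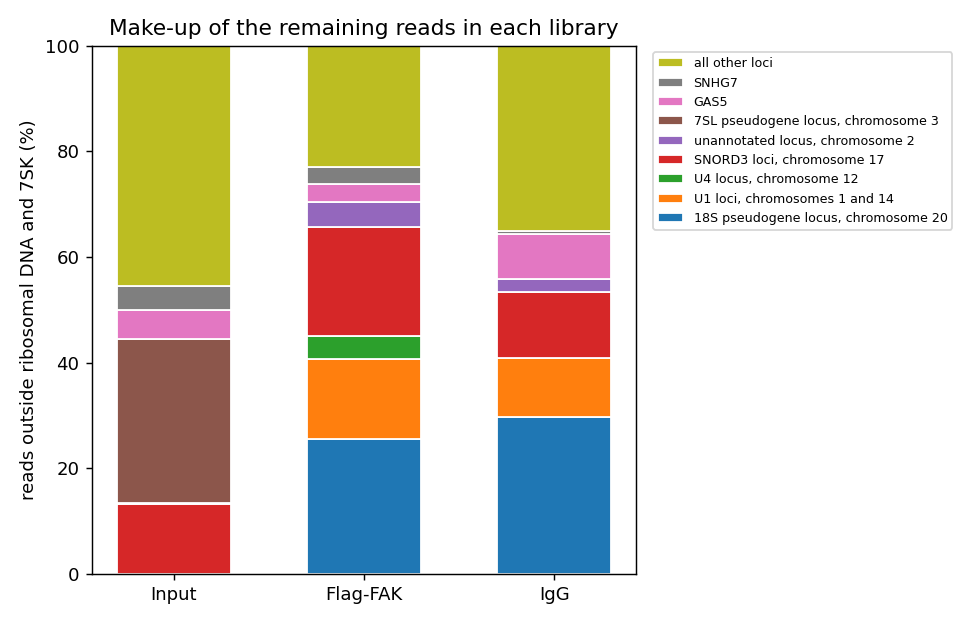
Share of reads outside ribosomal DNA and 7SK (y axis, %) taken by each named group of loci in Input, Flag-FAK and IgG; each bar sums to 100% of 13782, 1351 and 3669 reads. The 7SL pseudogene locus fills 31.0% of Input and none of either precipitate, while the 18S pseudogene and U1 loci fill 25.5% and 15.1% of Flag-FAK and none of Input.

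The locus with the most Input reads and none in Flag-FAK lay over sequence of 7SL, the RNA scaffold of the signal recognition particle, which directs nascent secreted and membrane proteins to the endoplasmic reticulum. This locus (NONHSAT088493.2; chr3:15680273-15738746, plus strand) spans BTD and ANKRD28 and ends 40 bases inside the end of RN7SL4P, a 7SL pseudogene. It had 4276 reads in Input, against 0 in Flag-FAK and 0 in IgG, where 372 reads would have been found in Flag-FAK at an equal share. It was at least 124-fold lower in Flag-FAK and at least 247-fold lower in IgG (upper ends of the ratio intervals 0.00992 and 0.00498). Whether these reads came from 7SL itself or from the pseudogene cannot be told apart, and a second locus over a 7SL pseudogene (RN7SL396P) had 11 reads in Input and none in Flag-FAK or IgG.

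Loci over the genes of U3, the small nucleolar RNA needed for cleavage of the ribosomal RNA precursor, were above their share in Input. This held at equal totals without ribosomal DNA. The U3 genes (SNORD3A to SNORD3D) lie on chromosome 17 under 2 assembled loci of opposite strand that cover nearly the same interval (chr17:19061928-19188282, plus, and chr17:19063901-19190251, minus). Both loci also span GRAPL, GRAPL-AS1, KYNUP1 and KYNUP2, and whether their reads came from U3 was not tested. The plus-strand locus had 1536 reads in Input, against 191 in Flag-FAK and 387 in IgG, giving a ratio of 1.46 (1.25 to 1.70) for Flag-FAK and 1.47 (1.32 to 1.65) for IgG. The minus-strand locus had 286, 88 and 75, giving a ratio of 3.14 (2.45 to 4.00) for Flag-FAK and 1.41 (1.08 to 1.82) for IgG. In Flag-FAK the plus-strand locus turned below Input with ratios centred on their median (log2 ratio -0.23) and both loci did as deposited (-2.92 and -1.81). Whether the counting used strand is not given in the sources used here, so reads of either locus may belong to the other.

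Host genes of small nucleolar RNAs carry those RNAs in introns, and their spliced transcripts are mostly non-coding and exported to the cytoplasm. Many begin with a run of pyrimidines, the terminal oligopyrimidine start of genes of the translation machinery. The following RefSeq starts (GRCh38.p14) belong to host genes among the loci named here and to VPS9D1-AS1, the lncRNA the study called FAISL. The start of the host gene SNHG6 was not examined here, so its absence says nothing about its distance or its first bases. GAS5 and SNHG15 are also not shown, as no searched start lay within 60 bases of an assembled start. Their first bases are therefore not described. For every start shown, the assembled transcript began within 60 bases of the RefSeq start. Each runs from 20 bases before the first transcribed base to 40 bases from it on, with the unbroken pyrimidines (C or T) from the first transcribed base in capitals. They lie at chr1:28581834-28581893 (SNHG12, minus strand), chr16:2155319-2155378 (SNHG19, minus), chr6:85678694-85678753 (SNHG5, minus), chr9:136728145-136728204 (SNHG7, minus), chr11:62855846-62855905 (SNHG1, minus), chr4:118278742-118278801 (SNHG8, plus) and chr16:89711836-89711895 (VPS9D1-AS1, plus).
SNHG12: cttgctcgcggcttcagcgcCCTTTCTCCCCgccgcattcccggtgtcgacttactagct
SNHG19: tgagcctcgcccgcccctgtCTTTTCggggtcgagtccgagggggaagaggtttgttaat
SNHG5: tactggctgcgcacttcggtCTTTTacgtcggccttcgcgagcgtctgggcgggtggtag
SNHG7: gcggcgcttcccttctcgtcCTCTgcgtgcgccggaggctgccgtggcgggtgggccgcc
SNHG1: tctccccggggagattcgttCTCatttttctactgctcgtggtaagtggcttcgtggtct
SNHG8: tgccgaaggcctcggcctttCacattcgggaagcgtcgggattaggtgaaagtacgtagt
VPS9D1-AS1: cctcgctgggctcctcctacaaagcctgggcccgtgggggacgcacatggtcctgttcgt
A C at the first base within at least 5 unbroken pyrimidines was present at the starts of SNHG12, SNHG19 and SNHG5, and at 4.07% of the 35116 RefSeq start windows searched on the transcribed strand. SNHG7, SNHG1 and SNHG8 begin with C and a shorter run, and VPS9D1-AS1 begins with A. The RefSeq start at the MMP24-AS1 locus, which is not on the list of host genes and is not printed, also met the rule with 6 pyrimidines, so such a start was not limited to host genes. These letters describe the reference only, and the first transcribed base in these cells was not measured.

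Of the 13 loci of small nucleolar RNAs and host genes, 11 passed the minimum. In Flag-FAK 1 was above 2-fold (the minus-strand U3 locus), 4 were below 0.5-fold and 6 lay between, with a median log2 ratio of -0.33 against -0.42 over all 72 loci that passed. GAS5, SNHG7, SNHG12, SNHG1 and SNHG6 were within 2-fold of Input in Flag-FAK and beyond 2-fold of it, in either direction, in IgG, except that GAS5 and SNHG7 were below 0.5-fold in Flag-FAK when ratios were centred on their median (log2 ratios of -1.30 and -1.10) and that all 5 lay below it as deposited. IgG over Input shares its denominator with Flag-FAK over Input, and had 64 of 195 loci above 2-fold (32.8%) and 87 below 0.5-fold (44.6%).

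GAS5, a host gene known from growth-arrested cells, had 758 reads in Input, against 46 in Flag-FAK and 314 in IgG. Its ratio was 0.693 (0.503 to 0.934) for Flag-FAK and 2.41 (2.11 to 2.76) for IgG. SNHG6 had 88, 8 and 114 reads, giving a ratio of 0.977 (0.409 to 2.01) for Flag-FAK and 7.84 (5.89 to 10.5) for IgG. SNHG1 had 133, 17 and 67 reads, giving a ratio of 1.11 (0.628 to 1.85) for Flag-FAK and 2.58 (1.90 to 3.49) for IgG. These 3 host genes were thus within 2-fold of Input in Flag-FAK and above 2-fold in IgG. SNHG5 had 55 reads in Input, against 0 in Flag-FAK and 36 in IgG. Against a floor of 3 reads it was at least 1.59-fold lower than Input in Flag-FAK (upper end of the ratio interval 0.797). Its IgG ratio was 3.75 (2.39 to 5.81).

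Other host genes stood the opposite way. SNHG7 had 628 reads in Input, against 44 in Flag-FAK and 25 in IgG, giving a ratio of 0.791 (0.569 to 1.07) for Flag-FAK and 0.227 (0.146 to 0.338) for IgG. SNHG12 had 136, 20 and 9 reads, giving a ratio of 1.41 (0.835 to 2.26) for Flag-FAK and 0.321 (0.144 to 0.628) for IgG. Both were near Input in Flag-FAK and below 0.5-fold in IgG. SNHG15 was below in both precipitates, with 167, 5 and 8 reads and ratios of 0.286 (0.0916 to 0.681) and 0.247 (0.105 to 0.498). SNHG19 had 68 reads in Input, against 0 in Flag-FAK and 17 in IgG. Against a floor of 3 reads this put it at least 1.97-fold below Input in Flag-FAK (upper end of the ratio interval 0.641). SNHG8 had 41, 0 and 0. Of the host genes shown above with a long pyrimidine start, SNHG12 was near Input, and SNHG19 and SNHG5 had no read in Flag-FAK. SNHG6 is not part of this comparison, as its start was not examined, nor are GAS5 and SNHG15, whose starts are not shown. At an equal share only 5.92 and 4.79 reads would have been found for SNHG19 and SNHG5.

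**Figure D4:**
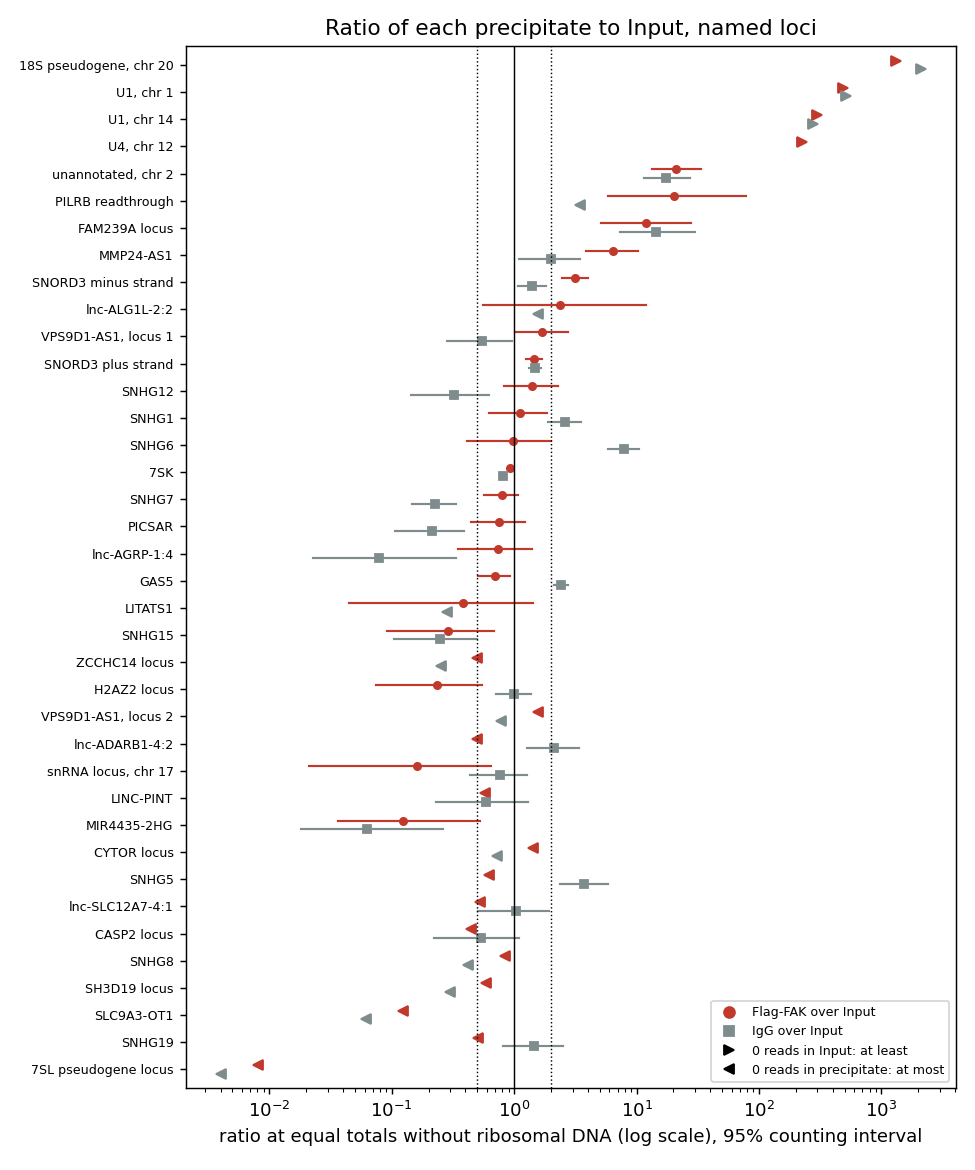
Ratio of Flag-FAK (red circles) and IgG (grey squares) to Input at equal totals without ribosomal DNA, on a log x axis, for the 38 named loci (y axis), with 95% counting intervals as lines. Triangles give bounds where Input (pointing right) or the precipitate (pointing left) had 0 reads, set against 3 reads; GAS5, SNHG1 and SNHG6 lie within 2-fold of Input in Flag-FAK and above 2-fold in IgG.

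The lncRNAs that the study followed up were taken forward on the same Flag-FAK and IgG libraries, so their level in Flag-FAK, relative to IgG or to Input, is no independent evidence. For VPS9D1-AS1 the study also reported RT-qPCR of precipitates, cross-linked precipitation and RNA pulldown, which were not analysed here. Its precipitation RT-qPCR in MDA-MB-231 cells was set against IgG, whereas the ratios here are to Input. Of their 9 loci, 6 passed the minimum, of which 2 were above 2-fold, none was below 0.5-fold and 4 lay between, with a median log2 ratio of 0.20. Over all 72 loci that passed, 31.9% were above and 44.4% below, and the median was -0.42. Of the lncRNAs followed up, Lnc-GOLGA6L6-10 was not analysed here, nor was Lnc-SPATA21-4. Loci of these lncRNAs had 1348 reads in Input, against 132 in Flag-FAK and 70 in IgG. Of these reads, 628, 44 and 25 were of SNHG7, which is among the 4 between and was given above with the host genes.

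VPS9D1-AS1, transcribed from the strand opposite to VPS9D1, had a locus of 2 transcripts (chr16:89711866-89717577, plus strand) and a further transcript downstream. The first had 138 reads in Input, against 20 in Flag-FAK and 13 in IgG, giving a ratio of 1.70 (1.01 to 2.74) for Flag-FAK and 0.543 (0.282 to 0.960) for IgG. The downstream transcript added 22 reads in Input and none in either precipitate. Summed over all 3 transcripts the ratio to Input was 1.37 (0.813 to 2.18) for Flag-FAK and 0.436 (0.227 to 0.766) for IgG. At this scaling VPS9D1-AS1 was therefore close to its share of the starting RNA in Flag-FAK, with an interval that included 1 once the whole gene was counted. As deposited the summed ratio was 0.123. The log2 ratio of the first locus, 0.73 at this scaling, was -0.01 with ratios centred on their median and 0.47 with 7SK left out of the totals. It was 1.04 with totals over all transcripts and 0.89 without the 18S pseudogene locus.

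MMP24-AS1, antisense to the membrane metalloproteinase gene MMP24 (chr20:35277267-35278111, minus strand), was the member with the most reads among those above 2-fold. It had 53 reads in Input, against 27 in Flag-FAK and 18 in IgG, giving a ratio of 6.39 (3.87 to 10.3) for Flag-FAK and 2.002 (1.10 to 3.47) for IgG. The gain lay on 1 of its 2 transcripts. MMP24-AS1:3 had 6, 20 and 0 reads and a ratio of 45.4 (17.6 to 138), whereas MMP24-AS1:2 had 47, 7 and 18 and a ratio of 1.60 (0.610 to 3.56). As deposited the log2 ratio of the locus was -0.78. The other locus above 2-fold was matched to the study's Lnc-PILRB-1 by position only, so that its place on the list is uncertain, and without it 1 of 5 was above. It was a transcript on the readthrough gene STAG3L5P-PVRIG2P-PILRB, with 5 reads in Input, against 8 in Flag-FAK and 0 in IgG and had a ratio of 20.3 (5.86 to 78.9).

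The remaining members could not be set apart from Input in Flag-FAK. PICSAR, a lncRNA named for its expression in squamous cell carcinoma, had 275 reads in Input, against 18 in Flag-FAK and 11 in IgG, giving a ratio of 0.758 (0.442 to 1.22) for Flag-FAK and 0.215 (0.106 to 0.390) for IgG. The transcript lnc-AGRP-1:4 had 155, 10 and 3 reads, and ratios of 0.745 (0.351 to 1.41) and 0.0783 (0.0228 to 0.332). LITATS1 had 61, 2 and 0 reads and a Flag-FAK ratio of 0.381 (0.0446 to 1.42), and lnc-ALG1L-2:2 had 11, 3 and 0 reads and a ratio of 2.39 (0.561 to 11.9). Every one of these 4 Flag-FAK intervals included 1.

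Among antisense transcripts in general, 9 of 36 loci passed the minimum, of which 4 were above 2-fold and 4 below 0.5-fold, against 31.9% and 44.4% of all loci that passed. The 4 above include MMP24-AS1 and the minus-strand U3 locus, which also covers GRAPL-AS1. TMEM147-AS1:4 had 6 reads in Input, against 7 in Flag-FAK and 2 in IgG, giving a ratio of 13.2 (3.80 to 47.6). A transcript at PRR34-AS1 had 11, 5 and 4 reads, giving a ratio of 5.26 (1.43 to 16.4). Of 62 loci that overlapped pseudogenes, 18 passed, 7 above and 8 below, near the shares over all loci. The 7 above include both U1 loci, the minus-strand U3 locus and the 18S pseudogene locus described before. On the X chromosome, a lncRNA at FAM239A had 13 reads in Input, against 13 in Flag-FAK and 32 in IgG, with ratio intervals of 5.13 to 28.1 and 7.37 to 30.0.

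Other losses were found at lncRNAs and at unnamed transcripts within protein-coding genes. SLC9A3-OT1, which overlaps the sodium/hydrogen exchanger gene SLC9A3, had 280 reads in Input, against 0 in Flag-FAK and 0 in IgG. It was at least 8.12-fold lower in Flag-FAK (upper end of the ratio interval 0.152). MIR4435-2HG, the host gene of a microRNA, had 194, 3 and 3 reads, with ratios of 0.124 (0.0363 to 0.527) and 0.0626 (0.0182 to 0.265). A transcript within H2AZ2, the gene of a histone H2A.Z variant, had 247, 5 and 43 reads. Its ratio was 0.233 (0.0749 to 0.550) for Flag-FAK and 1.00 (0.706 to 1.39) for IgG. A transcript at CASP2, a caspase gene, had 78, 0 and 8 reads, and lnc-ADARB1-4:2 had 69, 0 and 25, both at 0 in Flag-FAK only.

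Lists of lncRNAs by known compartment could hardly be read at this depth. No locus of the nuclear-retained list was among the 334 transcripts. Of 4 loci on the cytoplasmic list, 1 passed (CYTOR, with 0 reads in both precipitates and 24 in Input) and was below 0.5-fold. That list also held LINC-PINT, which is known as a largely nuclear transcript, with 60 reads in Input, against 0 in Flag-FAK and 7 in IgG at its main locus.

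Summing per locus changed what a transcript showed where Flag-FAK reads fell on only some transcripts of a gene. There were 27 loci with more than 1 transcript, holding 67 transcripts. Among them 4 transcripts were above 2-fold and 4 below 0.5-fold where the locus was not, and none was called opposite to its locus. All 46 Flag-FAK reads of GAS5 fell on MSTRG.2662.1 (161 in IgG and 239 in Input), with a ratio of 2.28, whereas the other 3 transcripts had 0 reads in Flag-FAK, 2 of them with 177 and 313 in Input. All 20 Flag-FAK reads of SNHG12 fell on MSTRG.706.3 (35 in Input), with a ratio of 6.79, and a second transcript had 0 and 79. All 44 of SNHG7 fell on SNHG7:1, with a ratio of 1.05, and the other transcript had 0 in Flag-FAK and 143 in Input. Reads shared between overlapping transcripts are divided by estimation, so these differences between transcripts of a gene are less certain than the sums.

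Detection of a locus in Flag-FAK followed its reads in Input. Of 19 loci with at least 100 Input reads, 17 had a read in Flag-FAK and 17 in IgG. Of 17 with 50 to 99, the numbers were 8 and 13, of 45 with 20 to 49 they were 9 and 25, of 75 with 10 to 19 they were 7 and 24, and of 102 with 1 to 9 they were 10 and 24. Of the 207 loci with Input reads and none in Flag-FAK, 188 would have been given fewer than 3 reads at an equal share, so their absence was not detectable as a loss at this depth. Among 33 loci without Input reads, 7 had reads in Flag-FAK, 3 of which also had reads in IgG, and 23 had reads in IgG only.

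**Figure D5:**
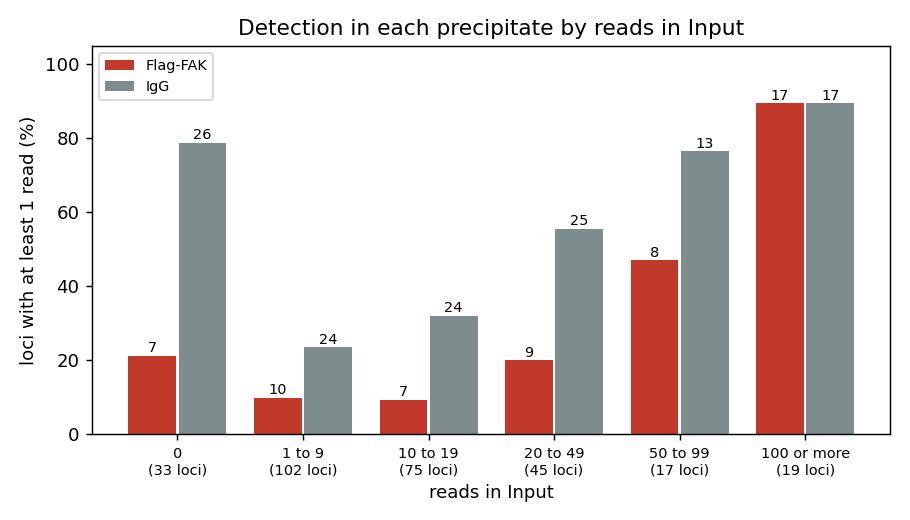
Percent of loci with at least 1 read in Flag-FAK (red) and IgG (grey), on the y axis, by number of reads in Input (x axis); numbers above the bars are loci detected. Detection in Flag-FAK rises from 9.80% at 1 to 9 Input reads to 89.5% at 100 or more, and 7 and 26 of the 33 loci without Input reads were detected in Flag-FAK and IgG.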

How the data were processed

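RNA from 3 libraries (Flag-FAK, IgG, Input) was analysed, grouped by the labels. For each, the authors deposited FPKM values and estimated counts of reads (whole numbers that look like estimates rounded up) for the same 334 transcripts over 7007 lines, 1 line per predicted target, and each transcript was used once. The submitters' processing notes name StringTie and GRCh38, and aligner, counter and use of strand are not given in the sources used here. Gene names came from RefSeq (GRCh38.p14) by overlap of position. The mRNA of FAK and of VPS9D1 was not analysed here.

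Input FPKM was multiplied by 0.0902 for Flag-FAK and 0.186 for IgG, which gave equal totals without the 3 ribosomal DNA transcripts of chromosome 21. Loci with at least 0.5 FPKM on either side were called above 2-fold or below 0.5-fold after adding 0.1 FPKM. Printed ratios carry no pseudocount. The counting intervals (Clopper-Pearson, 95%) were taken on reads and multiplied by the FPKM per read of a library relative to Input, the locus's own with at least 5 reads on both sides and otherwise the median (1.04 over 33 transcripts for Flag-FAK, range 0.867 to 1.23). Bounds for libraries without reads used 3 reads. They leave out counting error in the other library, so they reach further from 1 than the 95% intervals allow. Precision was limited by the 1351 Flag-FAK reads outside ribosomal DNA and 7SK.

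Named loci were the 10 with the highest ratio among those with at least 10 Flag-FAK reads and an interval above 1, the 10 with the lowest upper bound among intervals below 1, members of the listed RNA classes with at least 20 reads over both libraries, and the study's lncRNAs. A few others were named after their values were seen (TMEM147-AS1, PRR34-AS1, RN7SL396P and single transcripts). Members, lists and rules were chosen with earlier results of these data known. No test between conditions was made. The interval code was tested on simulated data. Alternatives were other scalings, read counts, pseudocounts and minimum values. Intervals were computed with scipy 1.17.1, tables with pandas 2.3.3 and numpy 2.4.6 and plots with matplotlib 3.10.9, all under Python 3.11.15.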

Additional observations from a re-analysis of the deposited data

How the results depend on the processing

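No paired analysis was possible because no condition has more than 1 library, and no library could be left out. For loci above 2-fold, the count stayed within 1.5 times of 23 under every alternative run except FPKM as deposited (11). Loci below 0.5-fold, 32 at the main setting, numbered 247 as deposited, 19 with totals over all transcripts, 92 centred on the median ratio, 9 with a pseudocount of 1, 207 with no minimum, 10 at a 1 FPKM minimum, 121 where 10 reads over both libraries were required and 2 where the interval lay wholly below the fold. The transcripts below 0.5-fold, 33 at the main setting, numbered 276, 21, 96, 10, 231, 12, 140 and 6 under those settings in the same order, and 50 without 7SK in the totals. Transcripts above 2-fold, 30 at the main setting, numbered 15 as deposited and 19 without loci of small RNA genes and pseudogenes, an alternative chosen after seeing the data, as were totals without the 18S pseudogene locus and totals over loci read in both libraries without 7SK.

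The median log2 ratio of loci with reads in both libraries was 0.18, and -2.94 as deposited. Relative to the main setting, ratios without the pseudocount shifted on the log2 scale by -3.47 as deposited, -0.28 without 7SK in the totals, 0.34 with all transcripts, -0.78 centred on the median and 0.17 without the 18S pseudogene locus. Log2 ratios with the pseudocount moved less, and those of loci without Input reads did not move. The ribosomal share of Flag-FAK differed from that of Input by -6.28 percentage points in reads and -2.81 in FPKM. Of 14 named loci with a positive log2 ratio, 7 turned negative as deposited, namely the minus-strand (-1.81) and plus-strand (-2.92) U3 loci, MMP24-AS1 (-0.78), the first VPS9D1-AS1 locus (-2.65), lnc-ALG1L-2:2 (-1.97), SNHG12 (-2.91) and SNHG1 (-3.21). At the main setting, 2 transcripts of the chromosome 2 locus were negative on their own, MSTRG.17707.1 (-1.95) and MSTRG.17707.2 (-2.31). The shifts follow from the totals used, and the cause of the other differences was not tested. Depth limits every value with few Flag-FAK reads.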
